A study of Arabidopsis thaliana with 10 samples.

Results

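Transcripts of 10 Arabidopsis thaliana genes of the seed programme were followed in seedlings of an FVE mutant and its wild type. The 10 genes were chosen by identifier from the 73194 features of the RNA count table: CRA1 (AT5G44120), CRU2 (AT1G03880) and CRC (AT4G28520) for 12S globulins, OLEO1 (AT4G25140), OLEO2 (AT5G40420) and OLEO4 (AT3G27660) for oleosins, AT2G25890, picked as an oil body gene but without a name in the reference used here, TIP3;1 (AT1G73190) for a tonoplast aquaporin, BGLU19 (AT3G21370) for a beta-glucosidase and ABI3 (AT3G24650) for a transcription factor. They were picked with the difference between the genotypes in these same libraries already known, so their values below are a description and carry no test.

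Whole seedlings of ecotype Ler were harvested at 5 days, untreated, after growth on MS medium. The wild type, called WT here, is the line E5-4, which the labels describe no further, and the mutant carries fve-8 in the homozygous state. Each genotype has 3 RNA libraries of 16161800 to 19599058 counts, and the 2 small RNA libraries per genotype cover mature miRNA entries and were not used here. The labels do not say that the replicates came from separate cultures, so the p-values below rest on a spread among these samples that may be technical.

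Seeds of Arabidopsis fill with 12S globulins, which are packed into protein storage vacuoles, and with oil, which is kept in droplets coated by oleosins. ABI3 is a B3-domain transcription factor that, with abscisic acid (ABA) and its relatives FUS3, LEC1 and LEC2, switches these genes on during seed maturation. After germination the reserves are broken down and the programme is shut off with the help of VAL repressors and Polycomb proteins. FVE (AT2G19520) encodes a WD40-repeat protein found with histone deacetylases. Its level was 9.96, 8.66 and 8.99 CPM (counts scaled to a common library size) in WT replicates 1 to 3 and 6.60, 5.62 and 5.39 in fve-8. It was called lower with edgeR's quasi-likelihood test (log2 fold change -0.65 ± 0.14, SE, adjusted p = 0.0184). That call was lost with library totals (log2 fold change -0.31) and when any WT library or replicate 2 of fve-8 was left out (adjusted p = 0.0618 to 0.104).

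Of the 10 genes 8 were lower in every fve-8 library than in every WT library, and 2, CRU2 and OLEO4, were not. Among all 19543 features that passed the count filter, 17.4% separated the genotypes in this direction and 15.6% in the other, a background given for scale, since the genes were chosen on this contrast. The median log2 fold change of the 10 genes was -2.27, against -0.01 for all features tested. The 8 lower genes had log2 fold changes of -1.31 to -2.80 with a median of -2.48. Each was also without overlap with library totals in place of TMM, though ABI3 only narrowly, and with counts scaled to nuclear genes. CPM here use library sizes adjusted by TMM, and fold changes are fve-8 over WT. Whether fewer cells carried these transcripts or each cell held less of them cannot be told apart in whole seedlings.

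**Figure D1:**
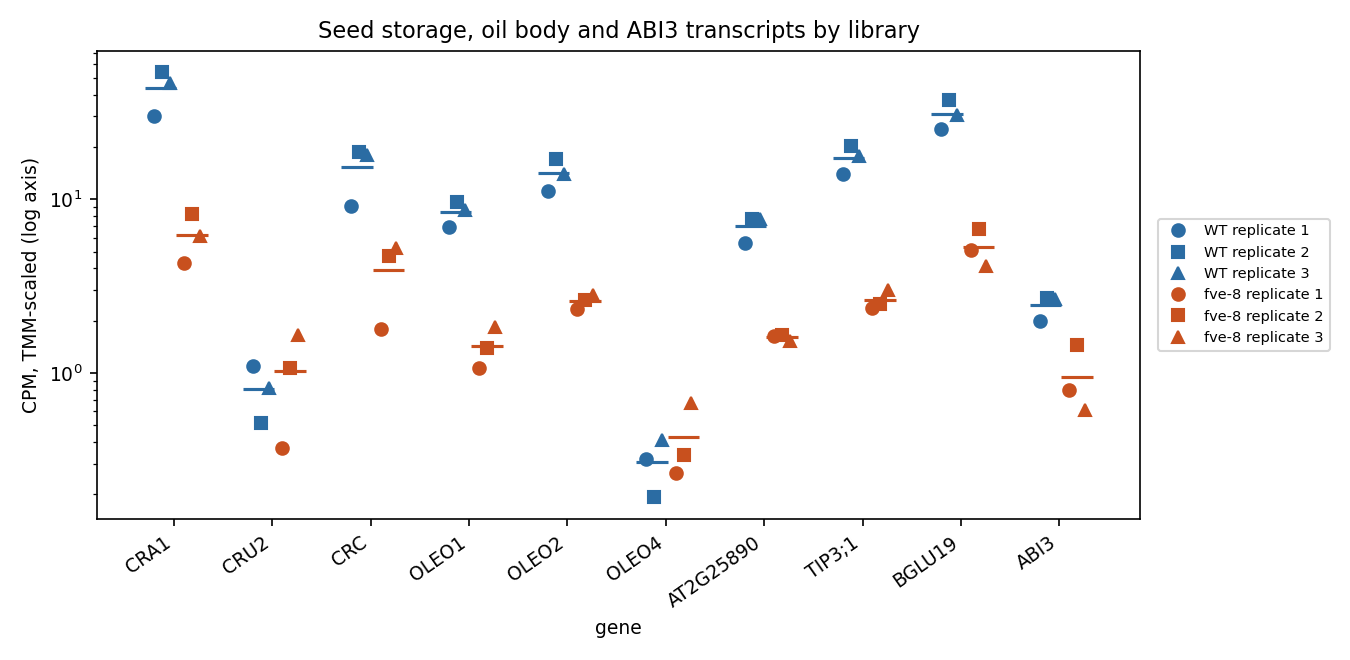
TMM-scaled CPM (log axis) of each of the 10 genes in the 3 WT (blue) and 3 fve-8 (orange) libraries, with replicates by symbol and the genotype mean as a line. For 8 genes all WT points lie above all fve-8 points, while those of CRU2 and OLEO4 overlap.

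The storage globulins did not behave alike. CRA1 had 470, 844 and 679 raw counts in WT replicates 1 to 3 and 81, 194 and 100 in fve-8, which correspond to 30.2, 54.1 and 46.6 CPM and to 4.28, 8.20 and 6.13 CPM. The lowest WT library was thus 3.68 times the highest fve-8 library, and the fve-8 mean was 14.2% of the WT mean (log2 fold change -2.80 ± 0.26, SE, n = 3). CRC, which the reference also lists as CRU3, had 142, 293 and 262 counts in WT and 34, 111 and 85 in fve-8. Its genotypes lay closer together, with the lowest WT library at 1.75 times the highest fve-8 library and a log2 fold change of -1.97 ± 0.36. CRU2, the gene of another cruciferin subunit, had 17, 8 and 12 counts in WT and 7, 25 and 27 in fve-8. The CRU2 values overlapped, with a WT mean of 0.810 ± 0.290 CPM and an fve-8 mean of 1.03 ± 0.643 (SD, n = 3) and a log2 fold change of 0.32 ± 0.49. That fold change was -0.11 without fve-8 replicate 3 and 0.70 without fve-8 replicate 1.

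Because the globulin genes are read in the same libraries, their shares of the summed globulin counts do not depend on the scaling between libraries. CRU2 made up 2.70%, 0.699% and 1.26% of these counts in WT replicates 1 to 3. In fve-8 it made up 5.74%, 7.58% and 12.7%. Most of the summed counts are those of CRA1 and CRC, which were chosen because they are lower in fve-8, so a higher CRU2 share there follows from that choice even where CRU2 itself is level, and it is no finding about CRU2. The exact 95% binomial intervals, which cover counting error only, ran from 1.58 to 4.29% in WT replicate 1 and from 2.34 to 11.5% in fve-8 replicate 1. CRC held 22.6%, 25.6% and 27.5% of the counts in WT and 27.9%, 33.6% and 40.1% in fve-8, which describes its smaller fold change beside that of CRA1. The cruciferin genes are related in sequence, and reads shared between copies could be counted on either, since how the authors counted such reads is not known here.

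The oleosin genes showed the same kind of split. Oleosins coat the oil droplets of the seed and keep them from fusing. OLEO1 had 108, 150 and 126 counts in WT and 20, 33 and 30 in fve-8, a mean of 8.40 ± 1.36 CPM against 1.43 ± 0.393 (SD, n = 3; log2 fold change -2.56 ± 0.22, SE). OLEO2 had 175, 266 and 202 counts in WT and 44, 62 and 46 in fve-8, with the lowest WT library 3.99 times the highest fve-8 library and a log2 fold change of -2.44 ± 0.18. Both genes were near the same proportion to each other in all libraries, as OLEO1 held 36.1 to 38.4% of their joint counts in WT and 31.2 to 39.5% in fve-8. AT2G25890 had 87, 120 and 112 counts in WT and 31, 39 and 25 in fve-8, and its 3 fve-8 libraries were tightly grouped at 1.64, 1.65 and 1.53 CPM (log2 fold change -2.11 ± 0.19).

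OLEO4 was the member with the fewest reads. It had 5, 3 and 6 counts in WT and 5, 8 and 11 in fve-8, summing to 14 (exact 95% Poisson interval 7.65 to 23.5) and 24 (15.4 to 35.7). It was the 1 of the 10 genes that did not pass the count filter, and its log2 fold change of 0.41 ± 0.56 comes from the fit without a filter. Its counts overlapped between the genotypes. Its part of the OLEO1, OLEO2 and OLEO4 counts was 1.74%, 0.716% and 1.80% in WT and 7.25%, 7.77% and 12.6% in fve-8. As with CRU2, this follows from the choice of OLEO1 and OLEO2 as genes lower in fve-8. The exact intervals were 0.662 to 3.87% in WT replicate 3 and 2.39 to 16.1% in fve-8 replicate 1.

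**Figure D2:**
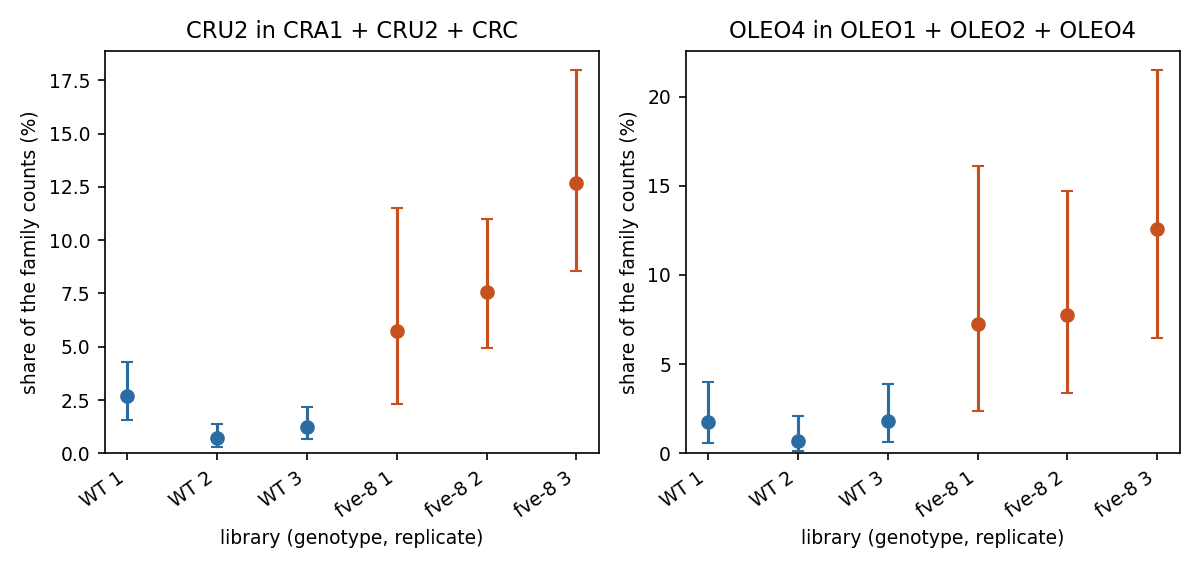
Share (%) of CRU2 in the counts of 3 globulin genes (left) and of OLEO4 in the counts of 3 oleosin genes (right) in each library, with exact 95% binomial intervals, WT in blue and fve-8 in orange. CRU2 lies between 0.699 and 2.70% in WT and between 5.74 and 12.7% in fve-8, and OLEO4 between 0.716 and 1.80% and between 7.25 and 12.6%, against family members that were chosen as lower in fve-8.

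TIP3;1, the seed-type water channel of the protein storage vacuole membrane, had 217, 316 and 259 counts in WT and 45, 59 and 49 in fve-8. It had the widest gap of the 10 genes, with the lowest WT library at 4.64 times the highest fve-8 library, and a log2 fold change of -2.73 ± 0.18 (SE, n = 3). BGLU19, a family 1 beta-glucosidase, had 394, 582 and 447 counts in WT and 96, 160 and 67 in fve-8, or 31.1 ± 6.02 and 5.31 ± 1.35 CPM (SD, n = 3; log2 fold change -2.53 ± 0.20). TIP3;1, BGLU19, CRA1, CRC, OLEO1, OLEO2 and AT2G25890 thus had fve-8 means of 14.2 to 25.5% of WT. For CRU2 and OLEO4 the fve-8 means were 127% and 138% of WT.

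ABI3, the regulator among the 10 genes, had the smallest difference of the 8 lower ones. It had 31, 42 and 39 counts in WT and 15, 34 and 10 in fve-8, which are 1.99, 2.69 and 2.68 CPM against 0.792, 1.44 and 0.613. Its raw counts overlapped between the genotypes, with fve-8 replicate 2 the deepest library, whereas its CPM did not. The lowest WT library, replicate 1, was 1.39 times the highest fve-8 library, replicate 2, in TMM-scaled CPM. The TMM factors, 0.8996 for that WT library and 1.207 for that fve-8 library, widened this gap, which was narrow with library totals. The log2 fold change was -1.31 ± 0.31 (SE), and it was -1.78 without fve-8 replicate 2 and -0.96 with library totals. The fve-8 mean of ABI3 was 38.6% of WT.

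**Figure D3:**
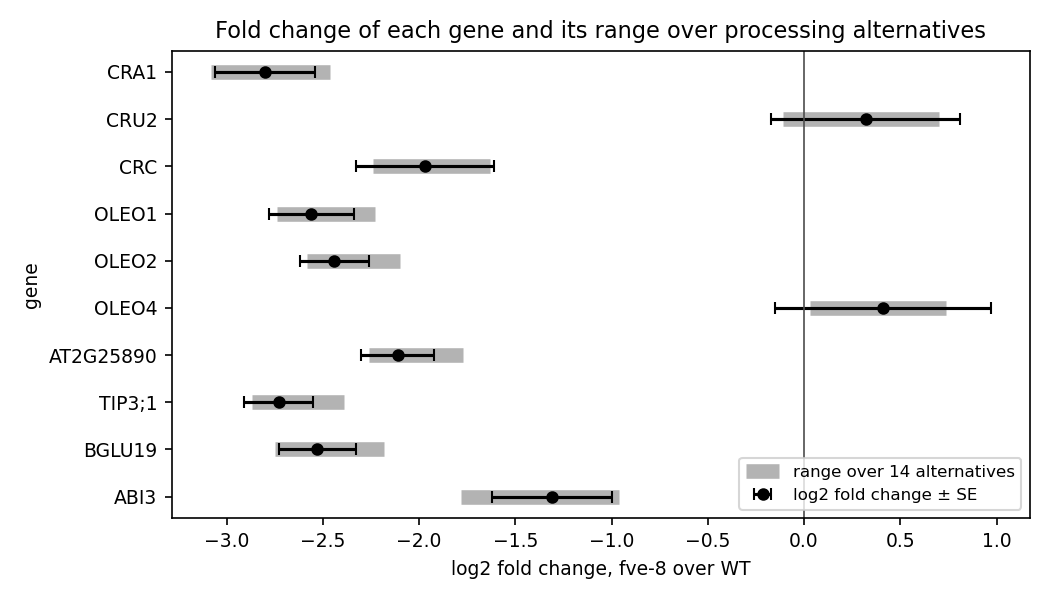
Log2 fold change (fve-8 over WT) of each gene, with its SE as a bar and the range over 14 processing alternatives in grey. The ranges of 8 genes lie below 0, from -3.08 for CRA1 without fve-8 replicate 2 to -0.96 for ABI3 with library totals, and those of CRU2 and OLEO4 lie around or just above 0.

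Together the 10 genes held 1646, 2624 and 2144 counts in WT replicates 1 to 3 and 378, 725 and 450 in fve-8. Their share of all counts was 4.27 times as high in WT as in fve-8, and their share of nuclear gene counts was 4.97 times as high. Plastid transcripts took 44.9 to 45.9% of the counts in WT and 33.0 to 38.5% in fve-8, a difference that lowers every nuclear share of all counts in WT, while the share of nuclear gene counts leaves the plastid transcripts out. In the authors' deposited table the log2 fold changes had the same sign for all 10 genes and differed from the values here by at most 0.05.

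The 8 lower genes also ordered the WT libraries alike. In each of them WT replicate 1 was the lowest WT library and WT replicate 2 the highest. WT replicate 1 lay below the mean of the other 2 WT libraries by a median of -0.44 on the log2 scale, with a range of -1.0 to -0.39. In fve-8 the lowest library was replicate 1 for 5 genes and replicate 3 for 3 genes. The genes share these libraries, so their common order is not independent evidence from gene to gene.

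Late embryogenesis and desiccation genes, which act beside the storage genes in the drying seed, fell in part. Across all features edgeR called 5.07% lower and 6.60% higher in fve-8 at an adjusted p under 0.05, and the lists of related genes were chosen with earlier results of these data known. With library totals the median of all features moved from -0.01 to 0.33, and of the genes below RAB18, NCED3, ABI1, RD26, CYP707A2, SNRK2.2, GAMMA-VPE, MLS, CSY3, FAD2, TIP2;2, TIP4;1, BGLU21, MAN7, CASP1, COBL9, CASP2, CAB2 and RST1 were then not called. Of 10 tested late embryogenesis and desiccation genes 4 fell, 6 were not called, and the median log2 fold change was -0.89. Lower without overlap were 7 of the 10, beside 17.4% of all features. With edgeR 8 had an unadjusted p under 0.05 for lower and 1 for higher. M17 (AT2G41260), a late embryogenesis gene, went from 1.86, 2.31 and 0.892 CPM in WT to 0.0528, 0.211 and 0.368 in fve-8 (log2 fold change -3.01 ± 0.53, adjusted p = 0.00877). PER1 (AT1G48130), a seed peroxiredoxin, went from 8.03 ± 0.900 CPM to 2.57 ± 0.855 (SD, n = 3; -1.62 ± 0.23, adjusted p = 0.00353). EM6 (AT2G40170), a late embryogenesis protein needed for seed drying, fell by 1.34 ± 0.28 on the log2 scale (adjusted p = 0.0181), and the ABA-responsive dehydrin RAB18 (AT5G66400) fell by 0.71 ± 0.20 (adjusted p = 0.0464).

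The other way, LEA7 (AT1G52690) stood at 3.15, 3.27 and 2.68 CPM in WT and 2.96, 11.7 and 9.44 in fve-8 (log2 fold change 1.41 ± 0.41, adjusted p = 0.0543), with fve-8 replicate 1 at the WT level. Without that library LEA7 was called higher (1.80, adjusted p = 0.000517), as it was with library totals, with no count filter and with DESeq2 (1.40 to 1.75, adjusted p = 0.00157 to 0.00737). LEA14 (AT1G01470) and LEA4-5 (AT5G06760) had log2 fold changes of -0.22 ± 0.09 and -0.93 ± 0.41 and were not called, and LEA14 was 0.12 with library totals. LEA4-5 was called lower without fve-8 replicate 3 (-1.58, adjusted p = 0.00305) and with no count filter (-0.94, adjusted p = 0.0347). The list called lower numbered 1 without WT replicate 1 or 2, 2 without WT replicate 3 or fve-8 replicate 2, and 7 with fve-8 replicate 3 left out. PER1 held its call when any 1 library was left out. M17, EM6 and RAB18 did not, with adjusted p of 0.0525 to 0.197 without single libraries, WT replicates 1 and 2 among them for all 3 genes.

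Other storage protein and oil body genes with a name in the reference were mostly too low to test. Of 6 further storage protein genes 2 passed the filter and of 7 further oil body genes 2 did. With edgeR 0 of these 4 were called and 0 had an unadjusted p under 0.05, and DESeq2 and limma-voom also called 0. Listed identifiers without a matching name are not among these 4 and are given apart below. SESA3 (AT4G27160), a 2S albumin, was lower in every fve-8 library than in every WT library. It had a mean of 0.721 ± 0.10 CPM in WT libraries and of 0.455 ± 0.165 in fve-8 libraries (SD, n = 3). For the globulin-like gene PAP85 (AT3G22640) these means were 1.40 ± 0.219 and 1.75 ± 0.419. The caleosin RD20 (AT2G33380) had a log2 fold change of 0.73 ± 0.36 and passed the test with library totals (1.06, adjusted p = 0.0316). HSD5 (AT4G10020) had -0.38 ± 0.24 and was called lower without fve-8 replicate 3 (-0.63, adjusted p = 0.0468).

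A further 17 identifiers fixed with the lists have no matching name in the reference and were counted apart. They are not split by list here, so storage protein or oil body genes may be among them. Of 9 tested 4 fell: AT2G28490 (-2.34 ± 0.45, adjusted p = 0.0125), AT3G01570 (-2.0 ± 0.30, adjusted p = 0.00493), AT4G36700 (-1.63 ± 0.21, adjusted p = 0.00251) and AT3G15670 (-1.14 ± 0.26, adjusted p = 0.0244). Without WT replicate 2 the number called lower was 2, AT2G28490 and AT3G15670 being lost. AT2G28490 was also not called without WT replicate 1 or when fve-8 replicate 2 was left out, and AT3G15670 when WT replicate 3 was left out, with adjusted p of 0.0555 to 0.112.

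**Figure D4:**
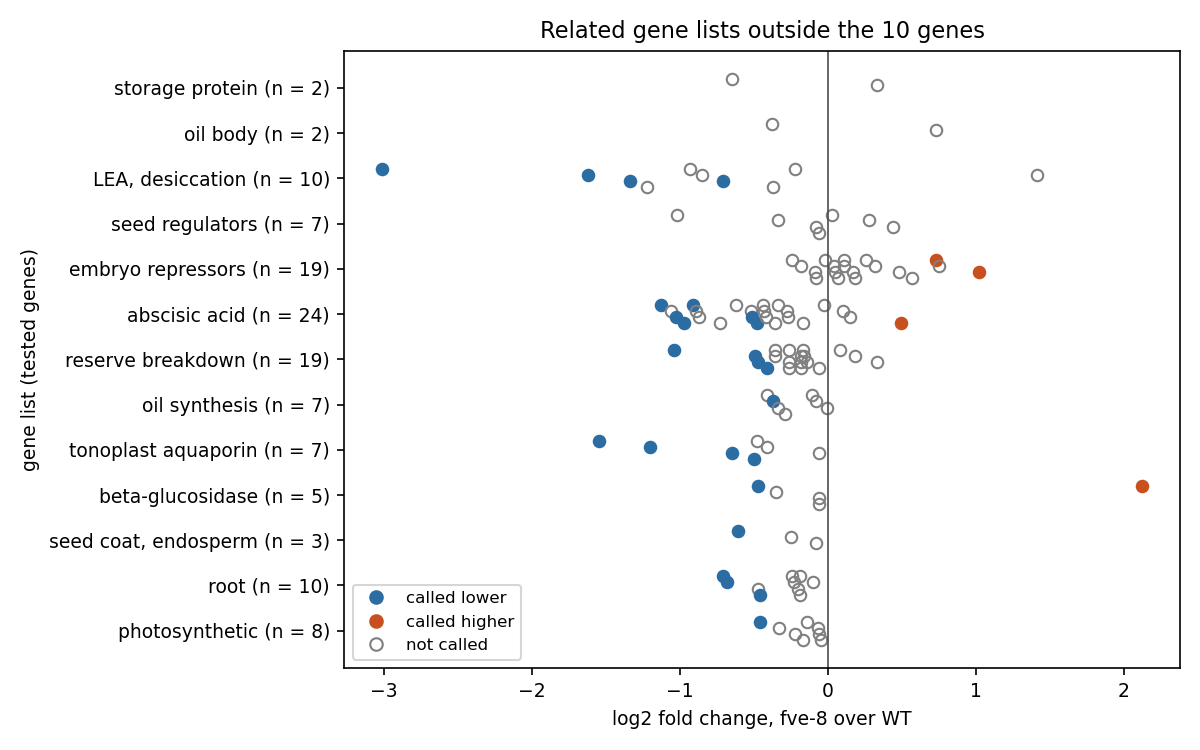
Log2 fold change (fve-8 over WT) of each tested gene in 13 lists of related genes and tissue markers, with genes called lower in filled blue, called higher in filled orange and not called as open circles. The 4 called late embryogenesis genes lie between -3.01 and -0.71, and BGLU18 stands apart at 2.12.

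The regulators around ABI3 were either not called or too low to test. Of 15 listed seed maturation regulators 7 were tested, with a median log2 fold change of -0.06. With edgeR 0 were called, 1 had an unadjusted p under 0.05 in each direction, and DESeq2 and limma-voom called 0. FUS3, LEC1 and LEC2, the other master regulators of seed maturation, did not pass the count filter. The bZIP genes BZIP25 (AT3G54620), AREB3 (AT3G56850) and BZO2H1 (AT4G02640) had log2 fold changes of 0.03 ± 0.10, -0.06 ± 0.15 and 0.44 ± 0.15. ABI5 (AT2G36270) did not overlap between the genotypes, at 2.63, 2.05 and 1.51 CPM in WT and 1.27, 0.676 and 1.16 in fve-8. Its log2 fold change was -1.02 ± 0.31, and edgeR did not call it (adjusted p = 0.0602). EEL (AT2G41070, 0.28 ± 0.19) was without overlap the other way. So was BZO2H1, but only by a margin lost in rounding, with WT replicate 3 and fve-8 replicate 3 both at 10.7 CPM. AREB3 changed sign with library totals (0.27) and without WT replicate 1 (0.05) or fve-8 replicate 1 (0.01). BZO2H1 passed the test with library totals (0.78, adjusted p = 0.0103) and when fve-8 replicate 3 was left out (0.57, adjusted p = 0.00824). With that library out, 1 regulator was called lower and 1 higher.

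Among 19 tested repressors of the embryo programme 2 rose, beside 6.60% of all features, and 17 were not called, with a median log2 fold change of 0.11. Both risen genes encode RING-finger proteins of the Polycomb repressive complex that ubiquitinates histone H2A. RING1B (AT1G03770) went from 2.26 ± 0.232 CPM to 4.56 ± 0.826 (SD, n = 3; 1.02 ± 0.20, adjusted p = 0.0131) and DRIP2 (AT2G30580), also known as BMI1A, from 3.42 ± 0.547 to 5.66 ± 0.667 (0.73 ± 0.18, adjusted p = 0.0299). Neither was called without WT replicate 1 or 2, where 0 repressors were called (adjusted p of both genes 0.0569 to 0.141 over the libraries whose removal ended a call). The number called higher was 1 without WT replicate 3 or fve-8 replicate 2 and with the replicate block, 3 without fve-8 replicate 3, and 12 with library totals.

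Of 24 tested genes of ABA synthesis, breakdown and signalling 6 fell and 1 rose, beside 5.07% and 6.60% of all features. The median log2 fold change was -0.46. ABI2 (AT5G57050, -1.13 ± 0.29, adjusted p = 0.0348) and ABI1 (AT4G26080, -0.97 ± 0.27, adjusted p = 0.0442), phosphatases that hold ABA signalling back, fell. So did NCED3 (AT3G14440, -1.03 ± 0.29, adjusted p = 0.0490), which makes the ABA precursor xanthoxin, and the NAC factor gene RD26 (AT4G27410, -0.91 ± 0.23, adjusted p = 0.0352). These 4 genes overlapped between the genotypes, since WT replicate 3 lay near the fve-8 libraries. ABI1, for example, stood at 82.6, 93.7 and 41.0 CPM in WT and 35.6, 30.4 and 45.6 in fve-8. The calls were lost when replicate 1 or 2 of either genotype was left out (adjusted p = 0.0643 to 0.203 for these 4 genes). The number called lower was 0 when WT replicate 1 or 2, or replicate 2 of fve-8, was left out, 2 without fve-8 replicate 1 and 9 without fve-8 replicate 3. It was also 0 with the replicate block, 1 with library totals and 3 with limma-voom. NCED3 was not called with DESeq2 (adjusted p = 0.119), with limma-voom (0.0718) or with at least 1 CPM in 3 libraries (0.0515), and ABI2 and ABI1 were not called with limma-voom. Also called by edgeR, and without overlap, were CYP707A2 (AT2G29090, -0.51 ± 0.13, adjusted p = 0.0350) and SNRK2.2 (AT3G50500, -0.48 ± 0.14, adjusted p = 0.0464), both lower. OST1 (AT4G33950, 0.49 ± 0.14, adjusted p = 0.0482) was the gene that rose, also without overlap. With DESeq2, limma-voom or the replicate block 0 ABA genes were called higher.

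The ABA genes shared part of the order of the libraries with the 8 lower seed genes. WT replicate 2 was the highest WT library for 15 of 24 ABA genes (median 0.37), for all 8 seed genes (median 0.39) and for all 10 late embryogenesis genes (median 0.38), and fve-8 replicate 1 was the lowest fve-8 library for 17 of 24 ABA genes and 5 of 8 seed genes. The low WT library differed. WT replicate 3 was the lowest WT library for 18 of 24 ABA genes, by a median of -0.69 on the log2 scale against the other 2 WT libraries, but for 0 of the 8 seed genes, whose median there was 0.14. The 8 seed genes were lowest in WT replicate 1 in all 8 cases, against 4 of 24 ABA genes. These are counts of genes that share 3 libraries, and no test was made of them.

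**Figure D5:**
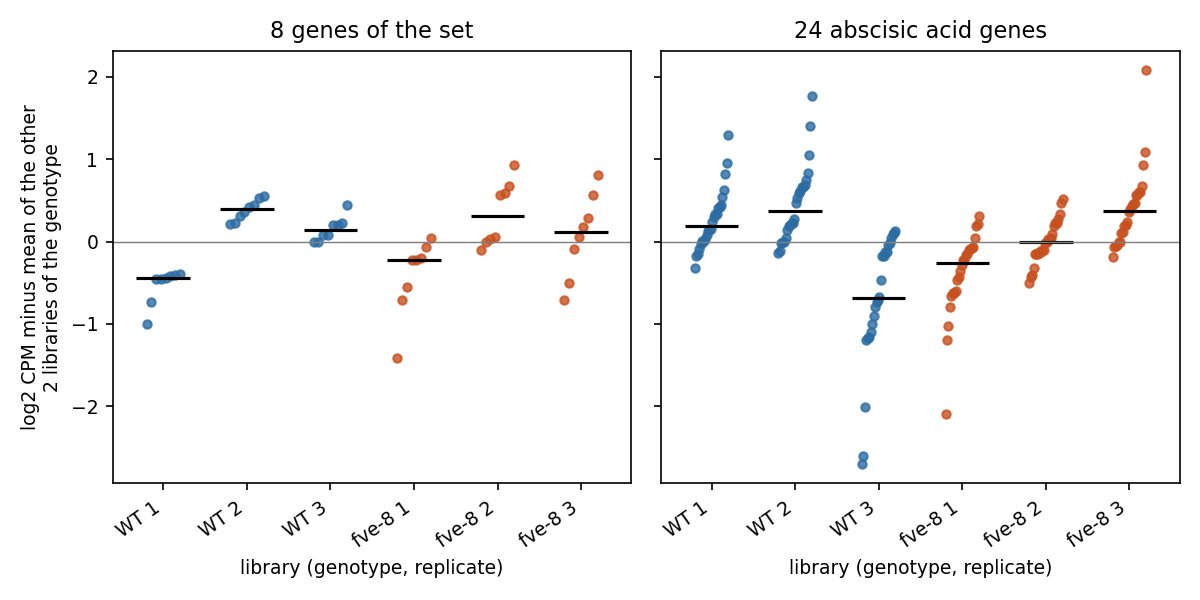
Log2 CPM of each gene in a library minus its mean in the other 2 libraries of that genotype, for the 8 lower genes of the set (left) and 24 ABA genes (right), with WT in blue, fve-8 in orange and medians as black lines. WT replicate 1 is the low WT library on the left (median -0.44) and WT replicate 3 on the right (median -0.69).

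Genes listed under reserve breakdown mostly had smaller differences. Of 19 tested 4 fell, and the median log2 fold change was -0.18. Lower without overlap were 11 of the 19, beside 17.4% of all features. With edgeR 9 had an unadjusted p under 0.05 for lower and 1 for higher. BETA-VPE (AT1G62710), a seed-type vacuolar enzyme that processes storage proteins, went from 9.77, 12.3 and 11.3 CPM to 5.17, 5.37 and 5.70 (-1.04 ± 0.14, adjusted p = 0.00278), a call that held without any 1 library. GAMMA-VPE (AT4G32940, -0.49 ± 0.10), the glyoxylate cycle gene MLS (AT5G03860, -0.47 ± 0.10) and the peroxisomal citrate synthase gene CSY3 (AT2G42790, -0.41 ± 0.10) also fell, with adjusted p of 0.0139, 0.0201 and 0.0328. These 3 calls were lost without WT replicate 1, 2 or 3, which each left 1 gene called lower, and those of MLS and CSY3 also without fve-8 replicate 2, which left 2 (adjusted p = 0.0541 to 0.159). ICL (AT3G21720), of the same list, was higher without overlap, at 99.6, 104 and 97.8 CPM in WT and 107, 124 and 149 in fve-8. It was not called by edgeR's test (0.33 ± 0.12, adjusted p = 0.111). In seed oil synthesis 1 of 7 tested genes fell, beside 5.07% of all features. It was the desaturase gene FAD2 (AT3G12120, -0.37 ± 0.10, adjusted p = 0.0456), a call kept only when fve-8 replicate 3 was the library left out (otherwise adjusted p = 0.0575 to 0.175).

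The tested relatives of TIP3;1 were mostly lower, while those of BGLU19 were called in both directions. BETA-TIP (AT1G17810), the other seed-type tonoplast aquaporin, also known as TIP3;2, went from 1.62 ± 0.0878 CPM to 0.558 ± 0.218 (SD, n = 3; -1.55 ± 0.31, adjusted p = 0.0137). Of 7 further tonoplast aquaporin genes tested 4 fell, with TIP2;3 (AT5G47450, -1.20 ± 0.19), TIP2;2 (AT4G17340, -0.65 ± 0.12) and TIP4;1 (AT2G25810, -0.50 ± 0.12) beside BETA-TIP (adjusted p = 0.00619, 0.00985 and 0.0287). Lower without overlap were 6 of the 7, beside 17.4% of all features. The median log2 fold change of the 7 was -0.5. The number called lower was 1 without WT replicate 1 or 2 and 2 without WT replicate 3. The calls of BETA-TIP, TIP2;2 and TIP4;1 were each lost without WT replicate 1 or 2, with adjusted p of 0.0534 to 0.135 over the libraries whose removal ended a call, while that of TIP2;3 was not. Of 5 tested beta-glucosidase genes near BGLU19, BGLU18 (AT1G52400), an ER-body enzyme that can release ABA from its glucose ester, rose from 21.5, 20.1 and 19.9 CPM to 122, 88.8 and 56.7 (2.12 ± 0.23, adjusted p = 0.00120), also without any 1 library. BGLU21 (AT1G66270) fell (-0.47 ± 0.13, adjusted p = 0.0446), a call lost when any WT library or replicate 2 of fve-8 was left out (adjusted p = 0.131 to 0.160).

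Markers of other tissues were read in the same libraries. Of 7 seed coat and endosperm markers the seed coat genes BAN, TT10 and TT12 had 0 counts in all 6 libraries, and the list summed to 16.7 to 20.3 CPM in WT and 11.0 to 14.6 in fve-8, most of it MAN7 (AT5G66460), which went from 13.9 ± 2.35 to 9.07 ± 1.94 CPM (SD, n = 3; -0.61 ± 0.18, adjusted p = 0.0495). MAN7 was the 1 of 3 tested markers that fell, a call kept only when fve-8 replicate 1 was the library left out (otherwise adjusted p = 0.0540 to 0.210). Of 10 root markers 3 fell, CASP1 (AT2G36100, -0.71 ± 0.10, adjusted p = 0.00402), COBL9 (AT5G49270, -0.68 ± 0.16, adjusted p = 0.0293) and CASP2 (AT3G11550, -0.46 ± 0.13, adjusted p = 0.0465), and their list summed to 101 to 110 CPM in WT and 77.4 to 79.2 in fve-8. DESeq2 did not call COBL9 or CASP2. CASP1 alone was called without any 1 of WT replicates 1 to 3 and fve-8 replicates 1 and 2. The 8 photosynthetic markers summed to 24100 to 25900 CPM in WT and 19400 to 25100 in fve-8, and 1 fell, beside 5.07% of all features. It was CAB2 (AT1G29920, -0.46 ± 0.13, adjusted p = 0.0496), a call kept only when fve-8 replicate 3 was the library left out (otherwise adjusted p = 0.0794 to 0.22). The part of these tissue differences in the lower seed transcripts was not tested.

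Genes with the profile most like the mean of the 10 genes were sought among the 15938 other nuclear genes whose mean reached 2 CPM. Likeness was the root mean square difference between centred log2 CPM profiles over the 6 RNA libraries. The nearest was CYP96A15 (AT1G57750), an alkane hydroxylase of the wax pathway, at 0.0945 on the log2 scale, with 3.66, 4.17 and 5.01 CPM in WT and 0.792, 1.27 and 1.41 in fve-8. It was followed by AT4G36700 and AT5G55410 (both 0.226), the indole glucosinolate methyltransferase gene IGMT1 (AT1G21100, 0.234), the acylhydrolase gene DLAH (AT1G30370, 0.258), SOM (AT1G03790, 0.268), a zinc finger gene that holds back germination in the dark, AT5G46890 (0.279) and AT4G20390 (0.284). The 10 genes themselves lay at 0.240 (AT2G25890) to 1.11 (CRU2) from their mean, so CYP96A15 lay nearer to it than any of them. That mean takes in CRU2 and OLEO4, so it is not the profile of the lower genes alone. With profiles also scaled to unit SD, 1 of the 8 nearest genes named here stayed among the nearest 8.

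The genes beside the 10 on the chromosome did not share their differences as a group. Of 20 direct neighbours in the TAIR10.1 annotation 14 were tested and 2 fell: ATCTH (AT2G25900), next to AT2G25890, with a log2 fold change of -0.77 ± 0.10 (adjusted p = 0.00298), and RST1 (AT3G27670), next to OLEO4, with -0.37 ± 0.11 (adjusted p = 0.0484). The RST1 call was kept only when fve-8 replicate 3 was the library left out (otherwise adjusted p = 0.0766 to 0.177). It was also lost with median-ratio size factors, no count filter, DESeq2, limma-voom and the replicate block, 11 of 14 alternatives in all. The annotated spans of 5 of the 10 genes, OLEO1, OLEO2, AT2G25890, TIP3;1 and BGLU19, overlap that of a neighbour, and reads there may be counted on either or on neither.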

How the data were processed

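The authors deposited 1 RNA table of raw whole-number counts for each feature in each library, beside their own log2 fold changes and adjusted p-values, with the column names of a DESeq2 output per the file headers. Per the submitters' processing notes, TopHat2, SAMtools, HTSeq and edgeR were used. Not given in the sources used here are their versions, the genome build and how strand and shared reads were treated. Per the labels' protocols, Trizol RNA went into TruSeq Stranded Total RNA libraries. The authors' log2 values and p-values from the deposited table were used for no test.

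All 73194 features were fitted with genotype as the only term in edgeR 4.0.16 (R 4.3.3), with filterByExpr and TMM. The quasi-likelihood test was adjusted by Benjamini and Hochberg's method over the 19543 features that passed, and features with an adjusted p under 0.05 were called. Each SE was derived from the F statistic. Log2 CPM used a prior count of 2. A count of 0 is compatible with up to 3 counts (0.153 to 0.186 CPM before TMM scaling). This limit and the 95% intervals hold for counting error alone. Between replicates, the chi-square divided by its degrees of freedom was 2.68 to 4.10 in WT and 17.3 to 43.6 in fve-8, above sampling noise. Names came from RefSeq's table of TAIR10.1, which matched 28009 of 28496 nuclear identifiers. Its coordinates are not printed. The steps were tested on simulated counts.

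The 10 genes and the 13 lists were chosen with earlier results of these data known. Of 173 listed identifiers 156 had the listed symbol in the reference. Named were all 10 genes, up to 4 called genes of each list with the largest change, up to 3 uncalled ones with the highest mean in the storage protein, oil body, late embryogenesis and regulator lists, the 8 nearest profiles, and called neighbours. FUS3, LEC1, LEC2, ABI5, EEL, ICL, CYP707A2, SNRK2.2, OST1 and the seed coat genes at 0 were named outside that rule, after their values were seen. Alternatives were other normalizations, nuclear genes alone, other filters, DESeq2 1.42.0, limma-voom (limma 3.58.1), the replicate block and leaving out each library.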

Additional observations from a re-analysis of the deposited data

How the results depend on the processing

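The 8 lower genes of the set stayed below 0 under all 14 alternatives. The median of the 10 genes was -2.42 to -2.16 without single libraries and -1.94 with library totals, which moved it beyond the spread between replicates. Library totals gave 193 features lower and 5587 higher in all, in place of 990 and 1290, and the replicate block 461 and 768. The correlation of deviations from the genotype mean between libraries of the same replicate number was -0.0119, -0.0558 and -0.151. These deviations are centred over 3 libraries per genotype, so the correlations cannot show whether same-numbered libraries were paired. Leaving out single libraries gave 128 to 1986 features lower and 216 to 2444 higher.

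The small lists moved with most settings. With library totals the genes called lower numbered 1 for ABA and for reserve breakdown, 2 for aquaporins and 0 for oil synthesis, beta-glucosidases, seed coat and endosperm, root and photosynthetic markers. The genes called higher there numbered 12 for embryo repressors, 3 for ABA and for reserve breakdown, 2 for seed regulators, and 1 for oil body, late embryogenesis and unnamed identifiers. With the replicate block 0 ABA genes were called in either direction, 2 reserve genes, 1 root marker and 0 oil synthesis, beta-glucosidase, seed coat or photosynthetic genes were called lower, and 1 embryo repressor was called higher. Without a count filter 11 ABA genes and 1 seed regulator were called lower and 1 late embryogenesis gene higher. DESeq2 called 1 root marker lower, 0 ABA genes higher and 1 late embryogenesis gene higher, and limma-voom 3 ABA genes lower and 0 higher. With median-ratio size factors 0 oil synthesis, seed coat or photosynthetic genes were called lower, and with at least 1 CPM in 3 libraries 0 seed coat or photosynthetic genes.

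Without single libraries the genes called lower ranged from 0 to 9 (ABA), 1 to 7 (late embryogenesis), 1 to 6 (reserve breakdown, aquaporins), 1 to 4 (root), 2 to 4 (unnamed), 0 to 2 (oil synthesis, beta-glucosidases) and 0 to 1 (oil body, regulators, seed coat, photosynthetic). Those called higher ranged from 0 to 3 (embryo repressors) and 0 to 1 (ABA, late embryogenesis, regulators, reserve breakdown). With library totals LEA14 was 0.12 and AREB3 0.27, and AREB3 ranged from -0.17 to 0.05 without single libraries. Median-ratio size factors ended the calls of FAD2, MAN7, CASP2, CAB2 and RST1, and the filter at 1 CPM those of NCED3, MAN7 and CAB2. The cause of these moves was not tested. Comparisons of promoters and proteins, planned at first, were not run because no sequences were used here. Low counts limit the precision for CRU2, OLEO4, ABI3 and M17, among other genes.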
